A study of Mus musculus with 6 samples.

Results

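The BCL2 family decides whether a cell's mitochondrial outer membrane is permeabilised, the committing step of the intrinsic death pathway. Its effectors BAX and BAK form pores in that membrane, the anti-apoptotic proteins BCL2, BCL-XL and MCL1 hold them in check, and the BH3-only proteins BIM, PUMA, NOXA, BID and BAD neutralise those guardians or act on the effectors directly. In muscle precursors, part of the cell population is known to die when differentiation begins, and members of this family have been studied in that setting. Here 10 family genes were followed on gene expression arrays: Bax and Bak1 (effectors), Bcl2, Bcl2l1 and Mcl1 (anti-apoptotic), and Bcl2l11, Bbc3, Pmaip1, Bid and Bad (BH3-only). Each non-control probe whose RefSeq accession belonged to one of these genes was taken, which gave 13 probes for 10 genes among 39429 non-control probes, 27234 of them named through RefSeq.

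The RNA came from C2C12, an established mouse myoblast line that divides in serum-rich medium and can fuse into myotubes. One group (siRNA-MEG3, 3 arrays) received an siRNA targeting Meg3, an imprinted long non-coding RNA, and the other (siRNA-NC, 3 arrays) a negative control siRNA. Per the labels, both were grown in medium with 10% fetal bovine serum and transfected at a confluence of 70 to 80% by the reagent they call lip3000, and the siRNA amount is written as "20 um". The siRNA sequences and the time before RNA extraction are not given in the sources used here. The study asked what targeting Meg3 does to gene expression in these cells, and read it on single-colour Agilent arrays.

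The arrays carry several limits that touch every value below. The spots of siRNA-MEG3 arrays 1 and 3 scattered alike within each repeated probe (r = 0.98) and shared a slide position. Between siRNA-NC arrays 1 and 3, probes varied no more than the sampling noise of their spots allows (ratio of the variance between probes to that within them 1.04). Each such pair was counted as 1 sample, giving n = 2 samples per group throughout. This sets aside the labels, which call every array a biological replicate. Unlike the siRNA-MEG3 pair, siRNA-NC arrays 1 and 3 had different slide positions, so their pairing rests on the ratio alone. By the same ratio siRNA-MEG3 array 2 stood only 1.33 and 1.45 from arrays 1 and 3, which gave 2.10 between themselves, while siRNA-NC array 2 stood 159.0 and 152.7 from its partners. The siRNA-MEG3 samples are therefore hardly distinct by this measure. The ratio is set against spot scatter, which arrays 1 and 3 shared, so their 2.10 does not mean that they differed most. The SD of the log2 differences between probes was 0.020 for siRNA-MEG3 arrays 1 and 3, and 0.137 and 0.143 for array 2 against them. For siRNA-NC array 2 against its partners it was 0.555 and 0.561. p-values then measure only the spread between these samples, which may be technical. The scans of the groups were separate, so that scan and group cannot be told apart. The arrays do not check the knockdown: of 3 Meg3 probes, 0 were well above background with siRNA-MEG3, and with siRNA-NC 1 was, on array 2 alone. Between 62.8 and 69.3% of spots were well above background on siRNA-MEG3 arrays, against 70.1 to 75.2% on siRNA-NC arrays, and 0 spots were saturated. In RNA from a whole culture, fewer cells of a type and less RNA per cell cannot be told apart.

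A level is given below as scaled signal, the processed signal intensity of a spot multiplied so that the 75th percentile of its array stands at 1000. Levels are compared between arrays for 1 probe and not between probes, except where the signals of a marker list are summed. Log2 fold changes are siRNA-MEG3 over siRNA-NC, with standard error (SE) and 95% interval from limma. A probe passes at an adjusted p under 0.05 (Benjamini-Hochberg over all 26348 kept probes, 2-sided). Each family probe had 1 spot per array, and 11 of the 13 probes, covering all 10 genes, entered the fit.

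Of the 10 genes, Pmaip1 alone passed the threshold, and it stood 6.52-fold higher with siRNA-MEG3. The Bax probe read 2.34-fold lower and the Bid probe 1.65-fold higher with siRNA-MEG3, both without passing. Over the 11 probes, 1 was higher, 0 were lower and 10 did not pass, where 1.37% of all kept probes passed, 0.998% higher and 0.372% lower. Before adjustment, 3 of the 11 probes had a limma p under 0.05, 2 higher and 1 lower, against 19.2% of all kept probes, 11.6% higher and 7.58% lower. The median log2 fold change was -0.21 over the 11 family probes and 0.05 over all kept probes, with 4 family probes above 0 and 7 below.

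The arrays of the groups did not overlap for 6 family probes, 3 higher (Pmaip1, Bid and a probe of Mcl1) and 3 lower (Bax, Bak1 and Bcl2l11) with siRNA-MEG3. Such separation was common on these arrays, reaching 28.8% of all kept probes in the higher and 18.4% in the lower direction. All 11 probes were well above background on all 6 arrays.

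**Figure D1:**
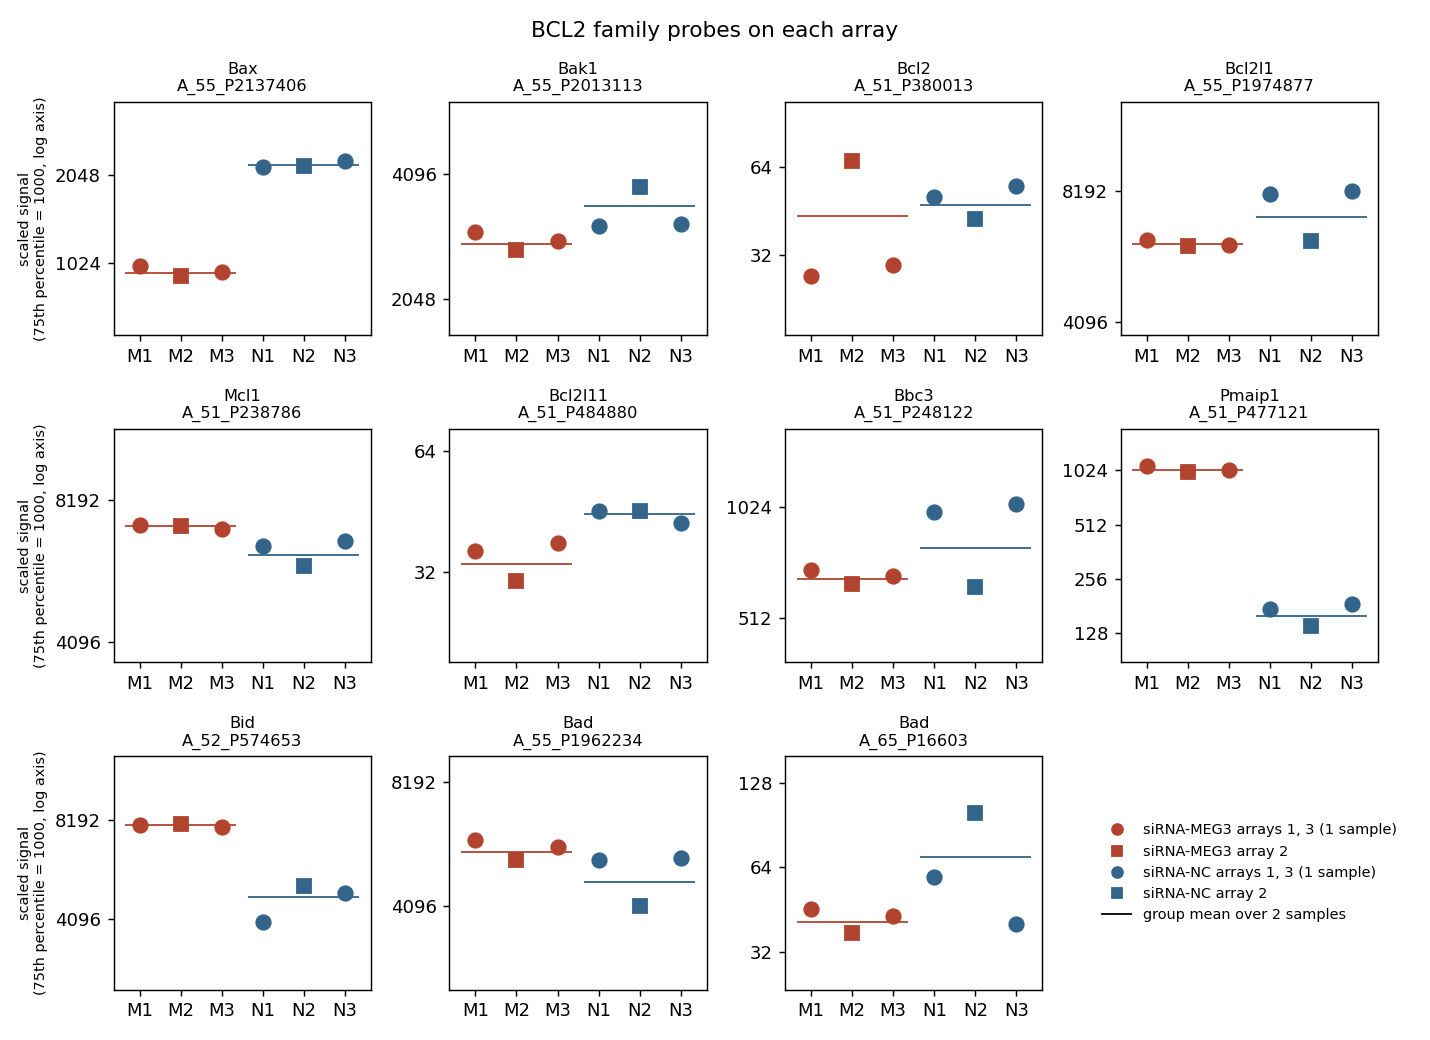
Scaled signal (log axis, 75th percentile of each array = 1000) of the 11 family probes on siRNA-MEG3 arrays (M1 to M3) and siRNA-NC arrays (N1 to N3); circles mark arrays 1 and 3, counted as 1 sample, squares array 2, and lines the group mean over 2 samples. The Pmaip1 points lie near 1000 with siRNA-MEG3, against 140 to 185 with siRNA-NC, the Bax points lie lower with siRNA-MEG3, and in Bbc3, Bcl2l1 and Bad siRNA-NC array 2 stands away from siRNA-NC arrays 1 and 3.

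Bax is the effector whose product moves from the cytosol to the mitochondrial membrane and oligomerises there. Its probe read 998, 923 and 953 on siRNA-MEG3 arrays 1 to 3, against 2189, 2200 and 2291 on siRNA-NC arrays 1 to 3. The arrays within each group lay close together, with samples 0.08 (siRNA-MEG3) and 0.03 (siRNA-NC) apart on the log2 scale. The log2 fold change was -1.23 ± 0.20 (SE; 95% interval -1.78 to -0.67; limma unadjusted p = 0.00307, adjusted p = 0.0941). It did not pass, although its size was above that of 91.9% of kept probes. The 102 spots around it had a median difference of -0.00. With the 6 arrays as 6 samples the Bax probe passed (-1.22, limma adjusted p = 0.00114), as did 26.5% of all probes in that fit. With 5 samples it passed too (-1.23, limma adjusted p = 0.0147), as did 8.57% of all probes. Both fits count likely repeat measurements as replicates, and the Bax probe did not pass in 16 of 19 alternative settings.

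Bak1 encodes the second effector, which resides in the outer membrane. Its probe read 2970, 2683 and 2819 on siRNA-MEG3 arrays 1 to 3, against 3069, 3815 and 3105 on siRNA-NC arrays 1 to 3. The groups did not overlap but came within a few percent of each other at siRNA-MEG3 array 1 and siRNA-NC array 1. The Bak1 log2 fold change of -0.30 ± 0.23 (SE; 95% interval -0.92 to 0.32; limma adjusted p = 0.557) did not pass, and without siRNA-NC array 2 it was -0.15. Its spot lay in a dark patch of siRNA-MEG3 arrays 1 and 3, a block of 30 by 17 spots with more than 5% of its spots over 4-fold dimmer than in siRNA-NC; the part of that patch in its value was not tested.

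**Figure D2:**
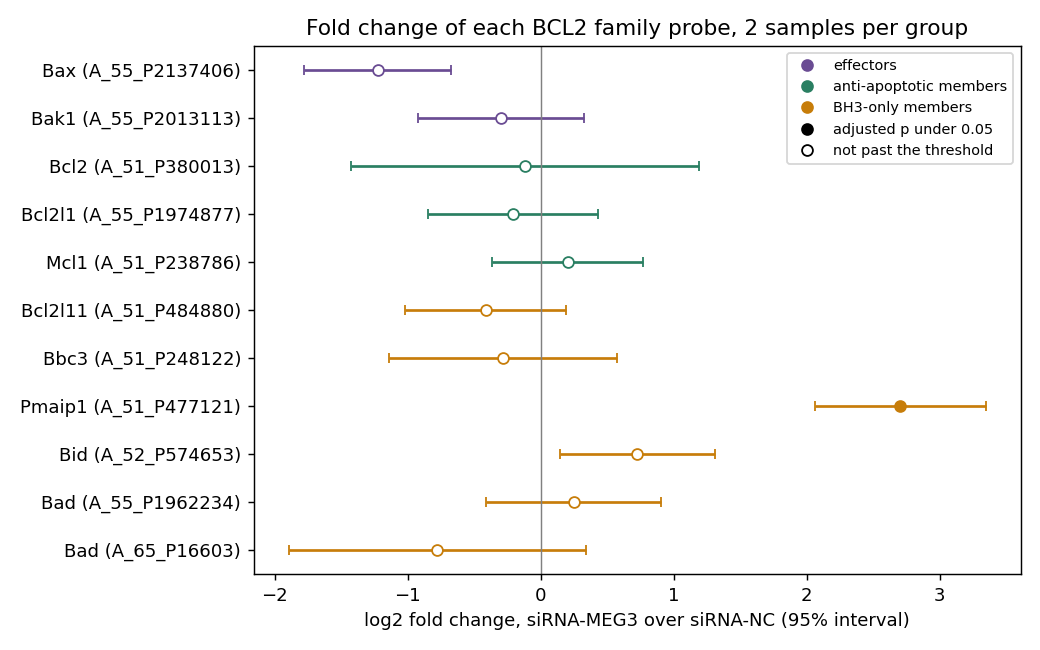
Log2 fold change (siRNA-MEG3 over siRNA-NC) of the 11 family probes with 95% intervals from limma, 2 samples per group, coloured by role; the filled point passed an adjusted p of 0.05. Pmaip1 is the filled point, at 2.70, and the intervals of Bax (-1.78 to -0.67) and Bid (0.14 to 1.31) also leave out 0, while the remaining 8 include it.

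Bcl2, the founding anti-apoptotic gene, was dim and unevenly measured. Its probe read 27.0, 67.1 and 29.4 on siRNA-MEG3 arrays 1 to 3, against 50.6, 42.4 and 55.1 on siRNA-NC arrays 1 to 3. siRNA-MEG3 array 2 was the brightest of the 6 arrays and siRNA-MEG3 arrays 1 and 3 the dimmest, so the siRNA-MEG3 samples lay 1.25 apart on the log2 scale, against 0.32 for the siRNA-NC samples. The log2 fold change of -0.12 ± 0.48 (SE; 95% interval -1.43 to 1.19; limma adjusted p = 0.927) covers anything between 0.371-fold and 2.28-fold of the siRNA-NC level. With siRNA-MEG3 array 2 left out, so that siRNA-MEG3 had a lone sample, it was -0.75, and with another background correction (normexp) it was 0.22. The probe's accession is 1 of 2 protein-coding RefSeq transcripts of Bcl2.

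Bcl2l1 encodes BCL-XL, which restrains BAX and BAK in many cell types. Its bright probe read 6333, 6122 and 6170 on siRNA-MEG3 arrays 1 to 3, against 8054, 6304 and 8180 on siRNA-NC arrays 1 to 3. siRNA-NC array 2 lay with the siRNA-MEG3 arrays by its level, apart from siRNA-NC arrays 1 and 3. Its log2 fold change was -0.21 ± 0.24 (SE; 95% interval -0.85 to 0.43; limma adjusted p = 0.705). The spots around it had a median difference of 0.25, and with the local spatial median subtracted it stood at -0.58 (limma adjusted p = 0.292); without siRNA-NC array 2 it was -0.39. The other Bcl2l1 probe was near background on every array, at 3.89 to 6.13 with siRNA-MEG3 and 3.07 to 10.7 with siRNA-NC, and only siRNA-NC array 2 was marked as well above it. It did not enter the fit.

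Mcl1 encodes a short-lived anti-apoptotic protein that NOXA binds. The probe that entered the fit read 7247, 7222 and 7108 on siRNA-MEG3 arrays 1 to 3, against 6533, 5924 and 6702 on siRNA-NC arrays 1 to 3. Every siRNA-MEG3 array was slightly above every siRNA-NC array. A log2 fold change of 0.20 ± 0.21 (SE; 95% interval -0.36 to 0.77; limma adjusted p = 0.675) did not pass, and without siRNA-NC array 2 it was 0.12. A second Mcl1 probe was marked as a non-uniform spot on all 3 siRNA-MEG3 arrays and therefore stayed out of the fit. Its marked spots read 4393, 4611 and 4340 on siRNA-MEG3 arrays 1 to 3, against unmarked spots of 2356, 2702 and 2392 on siRNA-NC arrays 1 to 3.

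Pmaip1 encodes NOXA, a BH3-only protein that binds MCL1 and is known as a transcriptional target of p53. Its probe read 1088, 1007 and 1024 on siRNA-MEG3 arrays 1 to 3, against 174, 140 and 185 on siRNA-NC arrays 1 to 3. Every siRNA-MEG3 array was far above every siRNA-NC array, while the samples within a group lay 0.07 (siRNA-MEG3) and 0.36 (siRNA-NC) apart on the log2 scale. Pmaip1 rose by 2.70 ± 0.24 on the log2 scale (SE; 95% interval 2.06 to 3.35, n = 2 samples per group; limma adjusted p = 0.031), or 6.52-fold with an interval of 4.18 to 10.2. By size, it exceeded 98.9% of all kept probes, and by p it ranked 190. The 109 spots printed around it had a median log2 difference of 0.04 between the groups. The call was lost without siRNA-NC array 2, which leaves a lone siRNA-NC sample (log2 fold change 2.53, adjusted p = 0.124; 0 of 26531 probes passed in that fit), without a filter on dim probes (2.70, adjusted p = 0.0856) and in a refit of the authors' deposited value table (2.50, adjusted p = 0.0663).

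Bid encodes a BH3-only protein that caspase-8 cleaves to link death receptors to mitochondria. Its probe read 7908, 7985 and 7805 on siRNA-MEG3 arrays 1 to 3, against 4012, 5171 and 4912 on siRNA-NC arrays 1 to 3. The groups did not overlap, and the siRNA-NC samples lay further apart (0.22 on the log2 scale) than the siRNA-MEG3 samples (0.02). For this probe siRNA-NC array 3 lay nearer array 2 than array 1, with which it was averaged. The spread within that averaged pair (4012 and 4912) does not enter the gap between samples. Bid had a log2 fold change of 0.73 ± 0.22 (SE; 95% interval 0.14 to 1.31; limma adjusted p = 0.199, unadjusted p = 0.0254). It passed the threshold with the 6 arrays taken as 6 samples (0.76, limma adjusted p = 0.0114), a fit that counts likely repeat measurements as replicates. In that fit 26.5% of all probes passed.

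Upstream sequences of Bax and Bid are shown because theirs were the fold changes beside that of Pmaip1 with an unadjusted p under 0.05. Both are the 250 bases before a transcript start listed by RefSeq on GRCm38.p6 (chr7:45466899-45467148 for Bax and chr6:120916825-120917074 for Bid). They are written 5′ to 3′ along the minus strand, on which both genes lie. RefSeq lists 3 transcripts of Bax and 4 of Bid, so each start may be 1 of several. The annotated gene reaches 45466903 for Bax and 120917062 for Bid, so the Bid window lies mostly inside its gene. Capitals mark letters matching an E-box (CANNTG, bound by basic helix-loop-helix factors), a p53 half-site (named only) or a GC box (GGGCGG, bound by Sp factors), searched on both strands, with no overlap between motifs in these windows.
Bax: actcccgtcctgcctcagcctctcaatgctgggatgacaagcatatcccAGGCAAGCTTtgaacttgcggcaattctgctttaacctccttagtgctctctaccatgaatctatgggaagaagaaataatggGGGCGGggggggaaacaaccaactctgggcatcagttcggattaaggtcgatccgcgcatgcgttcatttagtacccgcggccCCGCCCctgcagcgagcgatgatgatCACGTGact
Bid: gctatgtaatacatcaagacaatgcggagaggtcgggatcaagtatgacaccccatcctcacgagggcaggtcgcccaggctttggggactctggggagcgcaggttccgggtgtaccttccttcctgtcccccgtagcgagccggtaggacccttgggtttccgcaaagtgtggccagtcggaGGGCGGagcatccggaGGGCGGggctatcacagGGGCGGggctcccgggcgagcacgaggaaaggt
The Bax window held 1 p53 half-site match starting at -201, GC boxes at -118 and -35, and an E-box at -9, counted from that start. The Bid window held GC boxes at -66, -50 and -33. The motif search did not cover Pmaip1, so whether its upstream sequence holds these motifs was not tested. Windows were searched for the other 9 of the 10 genes. Among them 5 held an E-box, 1 a p53 half-site and 7 a GC box in at least 1 window, against 66.2, 7.1 and 32.7% of 32851 promoter windows of the same length. Several of the genes have more than 1 window, 15 in all, and a letter match shows neither binding nor use of a site.

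The remaining BH3-only genes did not pass either. Bcl2l11 encodes BIM, which binds all of the main anti-apoptotic proteins and responds to growth factor withdrawal. Its dim probe read 36.0, 30.4 and 37.6 on siRNA-MEG3 arrays 1 to 3, against 45.3, 45.2 and 42.4 on siRNA-NC arrays 1 to 3. The groups did not overlap, and the log2 fold change was -0.41 ± 0.22 (SE; 95% interval -1.02 to 0.19; limma adjusted p = 0.41). This spot, too, lay in a dark patch of siRNA-MEG3 arrays 1 and 3, and with normexp background correction its value turned to 0.026.

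Bbc3 encodes PUMA, a BH3-only protein known as a p53 target like NOXA. Its probe read 688, 631 and 663 on siRNA-MEG3 arrays 1 to 3, against 992, 620 and 1039 on siRNA-NC arrays 1 to 3. As for Bcl2l1, siRNA-NC arrays 1 and 3 were above all other arrays and siRNA-NC array 2 was not. Bbc3 had a log2 fold change of -0.28 ± 0.32 (SE; 95% interval -1.14 to 0.58; limma adjusted p = 0.703), and without siRNA-NC array 2 it was -0.64 with a lone siRNA-NC sample (limma adjusted p = 0.133).

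Bad encodes a BH3-only protein that survival kinases inactivate by phosphorylation. Its bright probe read 5927, 5312 and 5699 on siRNA-MEG3 arrays 1 to 3, against 5316, 4106 and 5377 on siRNA-NC arrays 1 to 3. Its dim probe read 45.6, 37.5 and 42.9 on siRNA-MEG3 arrays 1 to 3, against 59.0, 99.8 and 40.3 on siRNA-NC arrays 1 to 3. The groups overlapped on both probes, whose fold changes had opposite signs. They were 0.25 ± 0.24 (SE; 95% interval -0.41 to 0.91; limma adjusted p = 0.66) on the bright probe and -0.78 ± 0.41 (SE; 95% interval -1.90 to 0.34; limma adjusted p = 0.403) on the dim one. Neither passed, and without siRNA-NC array 2 the bright probe stood at 0.056 and the dim one at -0.26, with a lone siRNA-NC sample.

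The family probes differed among themselves in how steady they were. The siRNA-NC samples lay further apart than the siRNA-MEG3 samples for 8 of the 11 probes. Over all 11 the siRNA-NC gaps ran from 0.03 (Bax) to 1.03 (the dim Bad probe) on the log2 scale. The siRNA-MEG3 gaps ran from 0.01 to 0.28 apart from that of Bcl2. On probes printed 10 times per array, the spots of 1 probe had a median SD of 0.06 to 0.09 (log2) at bright levels but 0.15 to 0.26 at the dim levels where Bcl2, Bcl2l11 and the dim Bad probe fell. Single-spot values at such levels are the less precise ones.

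The wider death pathway was read from 63 further genes in 7 lists, with the brightest kept probe standing for each gene. Of 56 measured genes 1 was higher, 0 were lower and 55 did not pass. Of all 22057 kept entries 1.42% passed, 1.03% higher and 0.394% lower. An entry is a gene or, for a probe not named through RefSeq, its listed name, so not every entry is a gene. The median log2 fold change of the 56 genes was 0.09, against 0.06 over all entries. An unadjusted limma p under 0.05 was found for 9 of the 56, against 19.5% of all entries.

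Among 11 other BCL2 family genes, 1 was higher, with a list median of 0.48. The gene that passed was Bcl2a1d, a mouse copy of the anti-apoptotic gene A1. Its probe read 29.1, 25.0 and 29.3 on siRNA-MEG3 arrays 1 to 3, against 6.08, 5.08 and 6.28 on siRNA-NC arrays 1 to 3, where it was not well above background on any array. With the siRNA-NC arrays set at the dimmest signal marked as well above background, it was 2.79-fold higher with siRNA-MEG3. That value was not tested. The fitted log2 fold change of 2.27 passed (limma adjusted p = 0.0436), but with normexp background correction it was 0.88 (limma adjusted p = 0.276). Bcl2a1d entered the fit through the siRNA-MEG3 arrays alone, so its call says nothing further about the list. Mouse A1 genes are near-identical copies, so which copy the probe read is uncertain, and the call was lost in 7 of 19 alternatives. Without siRNA-NC array 1 its fitted value was 2.26 (limma adjusted p = 0.0526), and without siRNA-NC array 2 it was 2.13 (limma adjusted p = 0.124), against 2.27 with all arrays.

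Bik, a BH3-only gene, read 30.8, 33.0 and 28.2 on siRNA-MEG3 arrays 1 to 3, against 18.3, 14.3 and 9.19 on siRNA-NC arrays 1 to 3, and was well above background on 2 of the 3 siRNA-NC arrays. Its log2 fold change of 1.19 ± 0.22 (SE; limma adjusted p = 0.107) did not pass. Bcl2l2, which encodes the anti-apoptotic protein BCL-w, is named here after its values were seen, because its probes disagreed in size. Its brightest probe gave -0.30 ± 0.28 (SE; limma adjusted p = 0.645). Its other probe read 201, 176 and 204 on siRNA-MEG3 arrays 1 to 3, against 1788, 1242 and 1902 on siRNA-NC arrays 1 to 3. That probe was at -3.004 ± 0.29 (SE; limma adjusted p = 0.0372), past the threshold, so the Bcl2l2 probes shared a direction but differed widely in size. Without siRNA-NC array 2 it stood at -3.29 (limma adjusted p = 0.124), in the fit where 0 of 26531 probes passed.

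Of the apoptosome components, caspases and nucleases, 0 of 10 passed in either direction, with a median of -0.07. Of the IAP genes and their antagonists, 0 of 6 passed (median 0.09). Of the death receptor pathway, 0 of 8 passed (median 0.23). Fadd, the adaptor upstream of caspase-8, stood at 0.74 ± 0.22 (SE; limma adjusted p = 0.199), and at 0.42 with the local spatial median subtracted. Cflar, which encodes the caspase-8 inhibitor FLIP, stood at 0.84 ± 0.26 (SE; limma adjusted p = 0.204) on its brightest probe, with -0.72 and -0.80 on the others.

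Of the outer membrane genes, 0 of 6 passed (median 0.10), and of the genes for turnover of MCL1 protein 0 of 5 (median -0.00). Of the regulators of BH3-only genes, 0 of 10 passed (median 0.06). Ddit3, which encodes the stress factor CHOP, stood at -0.97 ± 0.25 (SE; limma adjusted p = 0.173), and Foxo1, a forkhead factor, at 0.78 ± 0.21 (SE; limma adjusted p = 0.176). Pmaip1, Bbc3 and Bax are each known as p53 targets, and stood at 2.70, -0.28 and -1.23. Trp53, the gene of p53 itself, named after its values were seen, read 778, 801 and 754 on siRNA-MEG3 arrays 1 to 3, against 290, 1048 and 282 on siRNA-NC arrays 1 to 3. The groups overlapped through siRNA-NC array 2, and its log2 fold change was 0.52 ± 0.67 (SE; limma adjusted p = 0.743). Birc5 and Htra2 (IAP genes and antagonists), Vdac1 and Mtch2 (outer membrane) and Fbxw7 and Usp9x (MCL1 turnover) had the smallest p of their lists, with log2 fold changes from -0.38 (Fbxw7) to 0.50 (Htra2) and limma adjusted p from 0.42 to 0.536. The other probes of Birc5 and Mtch2 had the opposite sign.

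**Figure D3:**
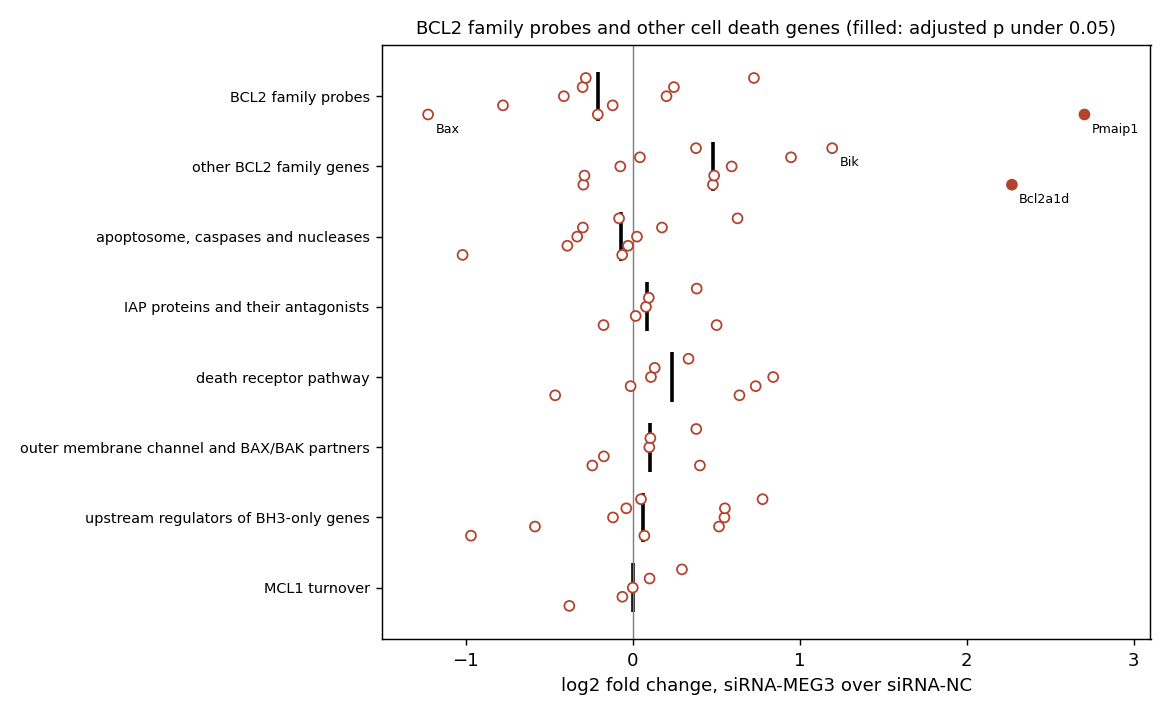
Log2 fold change (siRNA-MEG3 over siRNA-NC) of the 11 BCL2 family probes and of 56 further death genes in 7 lists, 1 point each, with black bars at list medians. Filled points passed an adjusted p of 0.05: Pmaip1 at 2.70 and Bcl2a1d, whose plotted value is the fitted 2.27 against siRNA-NC arrays below background; list medians lie between -0.21 and 0.48.

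Markers of differentiated muscle and of the response to double-stranded RNA stood higher in the same group as Pmaip1. Of 8 differentiated muscle genes 5 were higher and 0 lower (median log2 fold change 3.73). The 7 of them with a usable spot on all 6 arrays had a summed scaled signal of 51793 to 57422 with siRNA-MEG3, against 7105 to 8627 with siRNA-NC. Of 8 genes induced by double-stranded RNA or interferon 3 were higher (Oas1a, Oas2 and Rsad2) and 0 lower (median 0.82), with summed signals of 9345 to 9686 with siRNA-MEG3, against 4810 to 7332 with siRNA-NC. With siRNA-NC, Oas2 and Rsad2 were well above background on 0 arrays and Oas1a on 1, so these 3 entered the fit through the siRNA-MEG3 arrays alone. These lists were chosen with earlier results of the same arrays known, and their part in the values of the family genes was not tested. Of 6 myoblast genes 0 passed, with summed signals of 22078 to 23027 with siRNA-MEG3, against 12243 to 12850 with siRNA-NC. Itga7 made up most of that sum, at 18556 to 19631 with siRNA-MEG3, against 10469 to 11402 with siRNA-NC, and of the 6 fold changes 3 were above 0 and 3 below. Myf5, a myoblast determination factor named after its values were seen, read 34.3 to 35.2 with siRNA-MEG3, against 174 to 368 with siRNA-NC (log2 fold change -2.86 ± 0.41 SE; limma adjusted p = 0.0737). Among leukocyte (4 measured), endothelial (2), epithelial (2), adipocyte (3) and neural (4) markers 0 passed. The epithelial genes Epcam and Cdh1 were not well above background on any array, while the epithelial genes Krt5 and Krt14 were so on all 6. The myoblast genes Myod1, Myf5, Cdh15, Itga7 and Des were so on all 6, and Pax7 on 1 siRNA-MEG3 array and 3 siRNA-NC arrays.

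**Figure D4:**
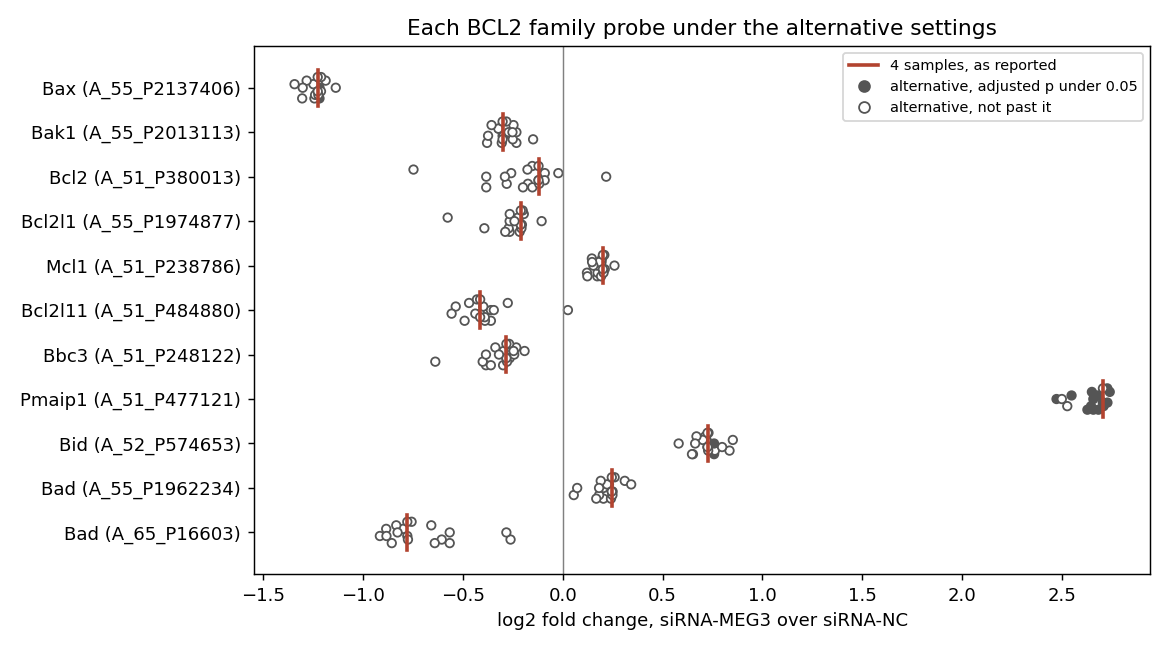
Log2 fold change (siRNA-MEG3 over siRNA-NC) of each family probe as reported (red bar) and under up to 19 alternative settings (points; filled where the adjusted p was under 0.05). Pmaip1 stayed between 2.47 and 2.74, Bax between -1.34 and -1.14 and Bid between 0.58 and 0.85, while the points of Bcl2 and Bcl2l11 lie on both sides of 0.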

How the data were processed

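Total RNA of 6 C2C12 samples was measured on single-colour Agilent mouse arrays. The deposited scanner files came from Agilent Feature Extraction 11.0.1.1, per the file headers, and list per spot a processed signal intensity (background-subtracted), the median pixel intensities of spot and local background, and quality marks (well above background, saturated, non-uniform or population outlier). The authors' deposited table of the whole series holds log2 values of 30732 probes; each array's median was 8.11 and its values followed the log2 processed signal of that array (r from 0.9992 to 0.9997), which gives its scale and direction but not the exact step between arrays. Repeated probes were averaged and a factor was taken from probes with intensities of at least 30, per the labels.

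Control spots and outlier spots were left out, and log2 processed signal was set relative to each array's 75th percentile. A probe was kept if either group had it well above background on each of its arrays with a usable spot, and every sample had a usable spot. Arrays 1 and 3 of a group were averaged. The comparison used limma 3.58.1 under R 4.3.3 (group as the only term; 2 residual degrees of freedom, prior 2.31). An exact permutation test of 2 samples against 2 cannot go below p = 0.333 and was not used. Probes were named through RefSeq accessions (GRCm38.p6), from which the promoter windows also come.

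Same-numbered arrays of the groups did not deviate together (correlations -0.03, -0.04 and -0.03), and no pairing was used in the main fit. As arrays 1 and 3 were nearly alike within each group, these values are not separate and cannot settle whether the numbers pair samples. All 13 family probes are named; of each companion list, genes past the threshold and otherwise the 2 with the smallest p, some of which are not reported here. Members, lists and tests were chosen with earlier results of these data known. Alternatives changed the sample count, the background, the scaling, the filters, single arrays and position on the array.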

Additional observations from a re-analysis of the deposited data

Results flagged for a closer look

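The second Mcl1 probe lies outside the comparison because its spots were marked as non-uniform on all 3 siRNA-MEG3 arrays, yet its marked spots were brighter there than the siRNA-NC spots, and the groups did not overlap. With the marked spots kept, its log2 fold change was 0.75 ± 0.21 (SE, n = 2 samples per group; limma adjusted p = 0.195), and in the authors' deposited value table, refitted, it was 0.76 ± 0.22 (limma adjusted p = 0.232). The unmarked Mcl1 probe stood at 0.20 ± 0.21 in the same direction. None of the 3 values passed the threshold, and whether the marks bear on the difference was not tested.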

How the results depend on the processing

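Of 19 alternatives, 16 kept the Pmaip1 call, which ended without siRNA-NC array 2, without a filter on dim probes and in the authors' value table (values in the results above). Bax kept its direction in 19 of 19 (-1.34 to -1.14) and Bid in 19 of 19 (0.58 to 0.85). The counts that follow go with shares of all probes that differed as well. As reported 1.37% passed, against 26.5% with 6 arrays as 6 samples, 13.9% with those 6 and a replicate block, and 8.57% with 5 samples. The family count of 1 higher and 0 lower became 2 higher and 1 lower with 6 arrays as 6 samples and with those 6 and a replicate block, 1 lower with 5 samples, and 0 higher without siRNA-NC array 2, without a dim filter and in the value table. Leaving out single arrays gave 0 to 1 family probes higher and 0 to 0 lower, and 0 to 1 companion genes higher and 0 to 0 lower. Companion genes numbered 10 higher and 3 lower with 6 samples, 3 higher with 5, 5 higher with 6 and a block, and 0 higher with 4 samples and the replicate block, normexp, the labels' factor, no dim filter, the value table, or without siRNA-NC array 1 or 2. The 4-sample replicate block left Pmaip1 at 2.70 (limma adjusted p = 0.0452) and changed no other family call. Bcl2 (0.22, limma adjusted p = 0.755) and Bcl2l11 (0.026, limma adjusted p = 0.967) changed sign with normexp, which also moved the median of all probes to 0.17, against 0.05; the cause was not tested. Bcl2a1d was 0.88 with normexp (limma adjusted p = 0.276). Bak1 and Bcl2l11 have no value with dark patches left out, and neither do the companion genes Fadd, Foxo1 and Ddit3.

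Over all probes, 263 were higher and 98 lower. The counts were 4330 and 2617 with 6 samples, 1311 and 942 with 5, 183 and 62 with the 4-sample block, 2184 and 1447 with 6 and the block, 137 and 21 in the value table, and 325 and 220 with the local spatial median subtracted, an alternative chosen after seeing the data. Without a dim filter limma gave 0 and 0 (5281 at an unadjusted p under 0.05), as it did when siRNA-NC array 2 was left out (8468). Leaving out siRNA-MEG3 array 2, so that 1 sample stood alone, gave 1374 and 1767. The share of calls that were higher was 72.9%, but 86.7% in the value table and 59.6% after the spatial step. Single spots, dim signal and 2 samples per group limit the precision.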
